A study of Mus musculus with 74 samples.

Results

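Brown fat was set against white fat in vehicle mice killed on day 15, on 8 of the 74 arrays of the series: 5 arrays of brown fat and 3 of white fat. The members were taken from the labels, as every vehicle array of either fat on that day. The series is a toxicology study in which male B6C3F1 mice received fenretinide, troglitazone or Elmiron for 15 or 29 days, and vessel tumours (hemangiosarcomas) are the outcome that its title names. The brown fat came from vehicle mice 41 to 45 of the troglitazone study (10GR202), and the white fat from vehicle mice 48 to 50 of the fenretinide study (10GR145). All were male B6C3F1 mice, a hybrid strain, that received no compound. The vehicle itself, its route, the age of the mice and the depot of the white fat were not stated in the labels. Tissue and study go together and cannot be told apart, so the account dwells on large differences.

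Brown fat is the heat-producing fat of mammals. Its adipocytes are packed with mitochondria, and in these Ucp1 lets protons return across the inner membrane without making ATP, so that the energy of burnt fatty acids and glucose is given off as heat. White fat stores triglyceride in single large droplets and secretes hormones such as leptin, which reports the size of the store to the brain. Both tissues also hold vessels, nerve, fibroblasts and immune cells. In whole tissue, fewer cells of a type and less RNA per cell cannot be told apart.

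Levels are log2 of the deposited intensity, 1 probe set per gene, and differences are brown minus white on the log2 scale. A gene was called at a Benjamini-Hochberg adjusted p below 0.05 in limma. A difference was counted as large if it was called, reached 2 (4-fold) and left no overlap between the groups. The p-values measure the spread between mice of the same study. Over all probe sets, pairs of brown fat arrays correlated at 0.9853 to 0.9949 and pairs of white fat arrays at 0.9895 to 0.9925. Brown and white arrays correlated at 0.9446 to 0.9628. The control probe sets at the 3′ and 5′ ends of Gapdh differed (3′ minus 5′) by 0.02 to 0.06 in brown and by -0.01 to 0.15 in white arrays. Those of Actb differed by 0.47 to 0.62 in brown and 0.53 to 0.74 in white arrays. Those of Pcx differed by 1.76 to 2.02 in brown and 1.54 to 1.75 in white arrays, so that only the Pcx ranges did not overlap. All 14 probe sets for the bacterial RNAs added at hybridisation were higher in the brown arrays, by 0.30 to 0.87 with a median of 0.74.

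Ucp1 was the gene with the largest difference of the 18194 tested. Its log2 intensity was 14.96, 14.95, 14.91, 14.98 and 14.98 in brown fat of mice 41 to 45, against 7.62, 6.17 and 5.83 in white fat of mice 48 to 50. The brown values lay within 0.1 of each other and far above every white value. They were also near the top of the scale, whose highest value on any array was 15.27, so that a saturated signal may hide spread between brown mice and lessen the fold. The difference was 8.41 ± 0.33 (SE), or 341-fold (limma, adjusted p = 2.05e-07). No detection calls were used, so a dim level such as that of Ucp1 in white fat may be background, and folds are those of the measured intensities. Lep, which encodes leptin, ran the other way. It stood at 9.10, 6.87, 7.40, 9.41 and 8.71 in brown fat, against 11.15, 12.14 and 11.64 in white fat. The groups did not overlap, but Lep varied more among the brown arrays (SD 1.11, n = 5) than among the white (SD 0.50, n = 3). Lep was lower in brown fat by 10.2-fold (difference -3.35 ± 0.56, limma adjusted p = 9.14e-04). Both markers matched the tissue labels on every array of day 15.

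**Figure D1:**
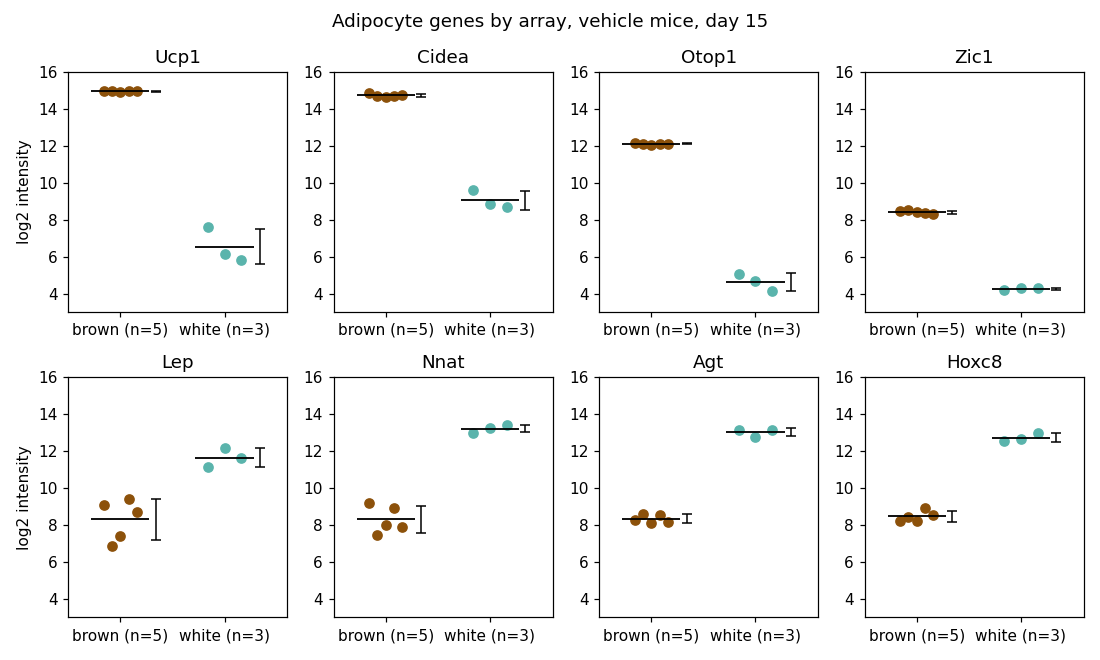
Log2 intensity of 8 adipocyte genes in each vehicle array of day 15, brown fat (n = 5) left of white fat (n = 3). Points are mice, the bar is the group mean and the whisker beside it 1 SD; Ucp1, Cidea, Otop1 and Zic1 are high in brown fat, Lep, Nnat, Agt and Hoxc8 in white fat, with no overlap.

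The upstream sequences of genes that carry the comparison are given to show what these promoters look like: Ucp1 and Dio2 for brown fat, Lep and Agt for white fat, and Myh4 for the muscle genes that came with the brown fat. Each is the 250 bases before the start of the gene in RefSeq (GRCm38.p6), in lower case, read on the strand of the gene. Capitals mark matches on either strand to any of 6 short motifs. These are the nuclear receptor half-site AGGTCA, the cyclic AMP response element TGACGTCA, the muscle-type E-box CAGCTG, the TATA box TATAAA, the estrogen-related receptor element TCAAGGTCA and the C/EBP and ATF element TGATGCAA. The half-site is part of the longer receptor element. The windows are chr8:83290098-83290347 (plus strand) for Ucp1, chr12:90739039-90739288 (minus strand) for Dio2, chr6:29059971-29060220 (plus) for Lep, chr8:124569707-124569956 (minus) for Agt and chr11:67237562-67237811 (plus) for Myh4.
Ucp1: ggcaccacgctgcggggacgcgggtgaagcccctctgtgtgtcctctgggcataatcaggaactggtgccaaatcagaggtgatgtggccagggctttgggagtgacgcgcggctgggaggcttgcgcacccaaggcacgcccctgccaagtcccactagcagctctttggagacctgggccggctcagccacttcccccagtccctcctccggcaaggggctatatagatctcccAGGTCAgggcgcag
Dio2: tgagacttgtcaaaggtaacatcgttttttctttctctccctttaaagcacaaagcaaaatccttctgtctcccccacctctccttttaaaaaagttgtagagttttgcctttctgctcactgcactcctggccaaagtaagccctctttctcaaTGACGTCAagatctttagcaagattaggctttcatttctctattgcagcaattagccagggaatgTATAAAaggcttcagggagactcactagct
Lep: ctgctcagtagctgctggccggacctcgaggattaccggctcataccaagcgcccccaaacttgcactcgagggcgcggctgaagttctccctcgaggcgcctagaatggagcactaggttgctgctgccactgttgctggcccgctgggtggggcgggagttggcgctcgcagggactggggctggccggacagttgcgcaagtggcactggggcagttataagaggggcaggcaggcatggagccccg
Agt: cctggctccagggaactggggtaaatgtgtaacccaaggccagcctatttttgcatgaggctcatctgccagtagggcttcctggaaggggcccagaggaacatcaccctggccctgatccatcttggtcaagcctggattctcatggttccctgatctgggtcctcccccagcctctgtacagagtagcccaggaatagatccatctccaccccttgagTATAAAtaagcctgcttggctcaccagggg
Myh4: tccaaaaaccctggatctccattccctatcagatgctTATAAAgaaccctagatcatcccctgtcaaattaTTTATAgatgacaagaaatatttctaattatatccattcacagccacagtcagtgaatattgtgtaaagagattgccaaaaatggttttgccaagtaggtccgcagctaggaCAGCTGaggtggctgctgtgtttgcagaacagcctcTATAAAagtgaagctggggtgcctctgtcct
The Ucp1 window holds 1 half-site, which begins 14 bases before the start. The Dio2 window holds a cyclic AMP response element 95 bases and a TATA box 30 bases before the start. Agt has a TATA box at 30 bases. Myh4 has an E-box at 67 bases and TATA boxes at 31, 179 and 213 bases, and no match lay in the Lep window. A match describes the letters of this window and shows no binding.

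Over the whole table, 9483 of 18194 genes were called, or 52.1%: 4624 were higher in brown fat (25.4%) and 4859 lower (26.7%). These shares are the background for the counts of each gene list below. With each array centred on its median the split was 6356 higher and 4155 lower. The groups did not overlap for 49.4% of all genes. The median difference of all genes was 0.04. Large differences were much fewer, with 234 genes higher in brown fat (1.29%) and 218 lower (1.2%). The higher genes reached further: 53 were higher by 4 or more, whereas 11 were lower by as much. In 110 of the higher and 92 of the lower genes the lowest array of the high group stood at least 2 above the highest array of the low group. Of the 20 largest rises, 7 varied by less than 1 among the 5 brown arrays, namely Ucp1, Otop1, Acot11, Fabp3, Elovl3, Cox7a1 and Slc27a2. The other 13 varied by 2 or more among the brown arrays and were genes of contractile muscle or its metabolism, described further on.

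Genes known for brown adipocyte identity and heat production were mostly higher in brown fat. Of 29 measured, 25 were higher in brown fat and 1 was lower, 20 of them by a large difference, and the median difference was 3.11 (all genes 0.04). Otop1, a proton channel, had 12.15, 12.12, 12.05, 12.12 and 12.12 in brown fat, against 5.06, 4.69 and 4.13 in white fat. Acot11, a thioesterase that frees fatty acids from coenzyme A, had 13.99, 14.01, 13.74, 13.86 and 13.72 in brown fat, against 6.27, 6.60 and 6.74 in white fat. Both were at the low end of the scale in white fat and close to level among the brown arrays, with differences of 7.49 ± 0.17 (179-fold, limma adjusted p = 8.97e-09) and 7.33 ± 0.12 (161-fold, adjusted p = 1.82e-09). Fabp3, a carrier of fatty acids in the cytosol of oxidative cells, had 13.46, 13.78, 13.76, 13.57 and 13.53 in brown fat, against 7.38, 6.67 and 6.59 in white fat. Elovl3, which lengthens fatty acids and is known for its rise in cold, had 13.46, 13.80, 13.51, 13.52 and 13.50 in brown fat, against 6.67, 8.04 and 6.34 in white fat. The groups lay over 5 apart in both genes.

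Cidea, a lipid droplet protein, was one of the brightest of these genes. It had 14.83, 14.70, 14.63, 14.71 and 14.76 in brown fat, against 9.62, 8.83 and 8.68 in white fat, so that it was well above the dim end in white fat too (difference 5.68 ± 0.18, 51.4-fold). Dio2, which activates thyroid hormone inside the brown adipocyte, had 9.33, 10.80, 9.32, 10.10 and 10.41 in brown fat, against 6.14, 5.89 and 6.25 in white fat. Its SD among the brown mice was 0.66 (n = 5). Kcnk3, a potassium channel, was higher by 3.66, Letmd1, a mitochondrial membrane protein, by 3.12, and Clstn3, whose locus also gives a short product in brown fat, by 3.08. The regulators differed widely in size. Ppara, the receptor that drives fatty acid oxidation, was higher by 3.95 and the coactivator Ppargc1a by 3.11. Prdm16, known as a switch of brown fat fate, was higher by 0.45 only (7.01, 6.79, 6.82, 6.87 and 7.04 in brown fat, against 6.47, 6.44 and 6.45 in white fat). The 3 members that were not called were Ebf2 (-0.28, adjusted p = 0.239), Eya1 (0.22, adjusted p = 0.0981) and Fbxo31 (-0.12, adjusted p = 0.506). With the mean of its 3 probe sets Eya1 was called at 0.36. Zfp516, known as a coactivator of Ucp1, was lower in brown fat (-1.13, adjusted p = 7.59e-04). Fbxo31 and Zfp516 were named after their values were seen.

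Genes of white adipocytes were the counterpart. Of 22 measured, 17 were lower in brown fat and 4 higher, 15 of the lower ones by a large difference, and the median was -2.43. Sncg, a synuclein, had 9.95, 8.26, 9.02, 9.48 and 9.26 in brown fat, against 14.08, 14.23 and 14.01 in white fat. Nnat, an imprinted gene for a small membrane protein, had 9.21, 7.44, 8.01, 8.93 and 7.91 in brown fat, against 12.99, 13.25 and 13.40 in white fat. Both were lower in brown fat by 30.1-fold, and both varied more among the brown arrays (SD 0.62 and 0.74) than among the white (SD 0.11 and 0.21). Agt, the precursor of angiotensin, had 8.27, 8.62, 8.11, 8.56 and 8.18 in brown fat, against 13.16, 12.76 and 13.14 in white fat, 25.5-fold lower in brown. Psat1, an enzyme of serine synthesis, had a difference of -4.05, and Retn, which encodes the secreted protein resistin, had a difference of -2.04. Slc7a10, an amino acid transporter, had a difference of -3.37. The list member that stood out in the other direction was Trim63 (3.40). It is a ubiquitin ligase of muscle, followed the muscle genes across the brown arrays, and was named after its values were seen.

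Beyond that list, the 20 largest falls included receptors and enzymes. Sucnr1, the receptor for succinate, had 6.43, 6.14, 5.76, 7.0 and 6.31 in brown fat, against 10.96, 11.06 and 11.26 in white fat. Ffar2, a receptor for short-chain fatty acids, had a difference of -3.78, and the adhesion receptor Adgrg2 one of -4.26. Sult1e1, the estrogen sulfotransferase, had 5.23, 5.93, 5.52, 5.71 and 5.22 in brown fat, against 10.05, 9.65 and 10.43 in white fat. None of these overlapped between the groups. Heph, an iron oxidase (-3.97), Gsta3, a glutathione transferase (-3.75), Slc39a8, a metal transporter (-3.63), Plagl1, an imprinted zinc finger protein (-3.73), and Chrdl1, which binds bone morphogenetic proteins (-3.94), were also lower in brown fat. The remaining ones were B3galt2 (-4.24) and Chst1 (-3.65), which modify sugars, Glb1l2 (-3.93) and the matrix protein Thbs1 (-3.73), with Hoxc8, Rspo1 and Upk3b described below.

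Genes shared by all adipocytes differed by smaller amounts, though most were called. Of 19 measured, 6 were higher in brown fat, 10 lower and 3 not called, none of them large. Of all genes, 25.4% were called higher and 26.7% lower. Fabp4, the main lipid carrier of adipocytes, had 14.66, 14.69, 14.73, 14.80 and 14.80 in brown fat, against 14.85, 14.86 and 14.90 in white fat (difference -0.13, adjusted p = 0.113). These values too lie near the top of the scale, and with the mean of its 4 probe sets Fabp4 was called at -0.51. Adipoq, which encodes adiponectin, had a difference of -0.44 and Pparg, the master regulator of fat cells, one of 0.79. Gpd1, which makes glycerol phosphate, was higher by 1.98 and the transcription factor Cebpb by 1.95. The mean of the list lay at 12.81 to 12.89 in the brown arrays and at 12.81 to 12.90 in the white, which overlap almost fully. Rises and falls offset each other in such a mean, so it does not show that single genes were alike.

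Mitochondrial genes were higher in brown fat across nearly every complex of the respiratory chain. All 34 measured subunits of complex I were called higher, with a median of 0.89 and a range of 0.22 to 1.70, as were all 14 genes of complexes II and III with cytochrome c (median 0.94, range 0.32 to 1.25). Ndufs1, the largest core subunit of complex I, led them with 13.55, 13.56, 13.60, 13.54 and 13.57 in brown fat, against 12.02, 11.89 and 11.69 in white fat (difference 1.70, 3.24-fold). None of these 48 genes was large by the 4-fold rule, but they moved in 1 direction where 25.4% of all genes were called higher. The 14 hybridisation probe sets also differed between the brown and white arrays, by 0.30 to 0.87. What part the study has in differences of this size was not tested. ATP synthase, which brown fat bypasses, differed least: 12 of 16 genes were higher and 2 lower, with a median of 0.46. Its inhibitor Atpif1 was among the lower ones, with 8.63, 8.59, 8.67, 8.54 and 8.34 in brown fat, against 9.92, 10.12 and 10.08 in white fat. Only 1 of 3 probe sets of Atpif1 was called this way. In the mitochondrial ribosome and its regulators 27 of 28 genes were higher and 1 was lower, with a median of 0.68.

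Within complex IV the large differences were in subunits that exist in paired forms, 1 of them known from heart, muscle and brown fat. Cox7a1 had 13.91, 13.71, 13.67, 13.64 and 13.71 in brown fat, against 7.77, 7.52 and 6.73 in white fat (difference 6.39 ± 0.20, 83.7-fold), whereas its broadly used partner Cox7a2 differed by 0.42. Cox8b differed by 2.98 and its partner Cox8a by 0.26. Cox6a2 differed by 3.79 and Cox6a1 by 0.31. The 3 high forms varied differently: Cox7a1 and Cox8b were level among the brown arrays, but Cox6a2 had 9.08, 12.65, 13.05, 12.54 and 10.86, the order of the muscle genes. Cox4i2 (0.03, limma adjusted p = 0.865) was not called, while Cox4i1 differed by 0.33. Cox7a2, Cox8a, Cox6a1 and Cox4i1 averaged 14.44, 14.78, 14.90 and 14.49 in brown fat. These levels lie near the top of the scale, where saturation may lessen a difference. Among uncoupling proteins Ucp3 was higher by 1.70, far less than Ucp1. In the ADP and ATP exchangers Slc25a4 differed by 0.57 and Slc25a5 by 0.10 (adjusted p = 0.205), which was called at 0.16 with the mean of its probe sets.

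**Figure D2:**
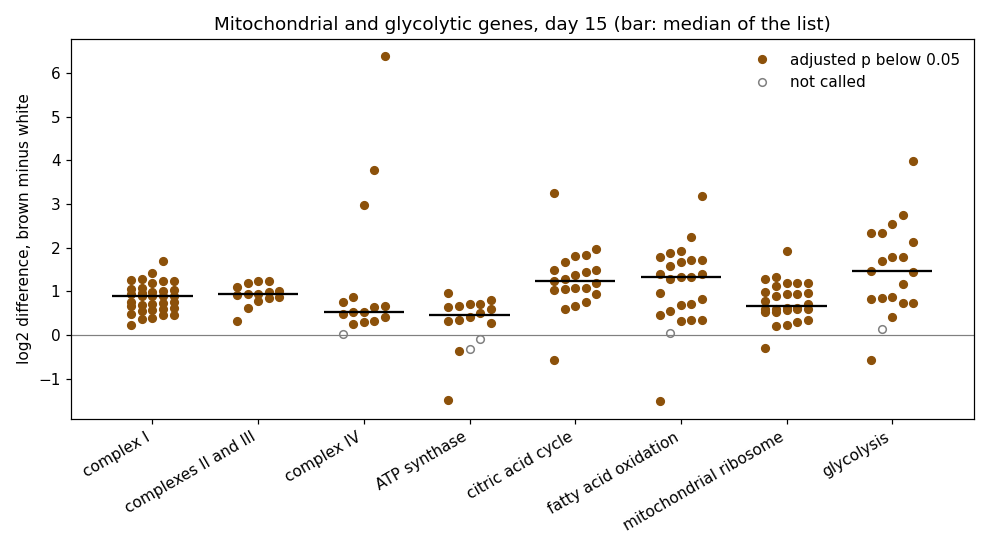
Log2 difference, brown minus white, of each measured gene in 8 lists of mitochondrial and glycolytic genes on day 15; filled points were called and the bar is the median of the list. All points of complex I and of complexes II and III lie above 0, and 3 subunits of complex IV stand apart from the rest of their list.

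The genes that feed the respiratory chain were higher as well. In the citric acid cycle and at its entry 20 of 21 genes were higher and 1 was lower (median 1.23), and in fatty acid oxidation 23 of 25 were higher and 1 was lower (median 1.32). Acsl5, which activates fatty acids, had 14.02, 14.03, 13.90, 13.90 and 13.94 in brown fat, against 10.71, 10.88 and 10.70 in white fat. Acaa2 and Hadha, which act in the last steps of each turn of oxidation, were higher by 2.25 and 1.93, and Slc25a20, the carnitine carrier, by 1.89. The exception was Cpt1a, the carnitine transferase of liver type, with 9.28, 9.16, 9.09, 9.18 and 9.18 in brown fat, against 10.71, 10.80 and 10.57 in white fat (difference -1.52, limma adjusted p = 6.62e-07). Its paired gene Cpt1b had no probe set with 1 gene symbol and so was not among the genes tested. Probe sets without a single symbol were not searched for Cpt1b, so the value of Cpt1a does not describe this step as a whole. Pdk4, a kinase that shuts the entry of pyruvate, was higher by 3.26, beside higher Dlat (1.81) and Pdhx (1.83), parts of the complex it acts on. Slc27a2, an activator of very long fatty acids, had 11.74, 12.00, 11.94, 11.62 and 12.03 in brown fat, against 5.11, 6.44 and 5.48 in white fat.

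Genes of glucose use and of fat synthesis were higher too. Of 20 genes of glucose uptake and glycolysis, 18 were higher and 1 was lower, 6 of the higher ones large (median 1.46). Hk2, the hexokinase of insulin-sensitive tissues, had 13.36, 13.30, 13.30, 13.46 and 13.30 in brown fat, against 10.89, 10.79 and 10.73 in white fat. The liver-type phosphofructokinase Pfkl was higher by 2.34 and Ldhb by 2.33, both level among the brown arrays. The muscle forms Eno3 (3.98) and Pfkm (2.76) were higher too, but Eno3 had 10.18, 13.28, 13.70, 13.25 and 12.06 in brown fat, the order of the muscle genes. Slc2a4, the insulin-dependent glucose carrier, was higher by 1.47. In fatty acid and triglyceride synthesis 13 of 22 genes were higher and 2 lower, with Elovl3, Elovl6 (3.77), Acacb (2.66) and the carbohydrate sensor Mlxipl (2.04) in the lead. Elovl6 had 14.06, 14.05, 13.95, 14.05 and 14.08 in brown fat, against 9.63, 11.49 and 9.70 in white fat. White mouse 49 stood apart in this gene and in Elovl3.

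The lipid droplet genes split by type. Of 21 measured, 8 were higher in brown fat and 11 lower, with a median of -0.32. The CIDE proteins took opposite sides: Cidea was higher by 5.68, while Cidec, which makes the single large droplet, had 12.79, 12.92, 12.77, 12.84 and 12.90 in brown fat, against 14.52, 14.46 and 14.55 in white fat (difference -1.66). The perilipins did likewise. Plin5, which ties droplets to mitochondria, had 13.01, 12.90, 13.11, 13.03 and 13.05 in brown fat, against 9.60, 10.25 and 9.65 in white fat, and Plin4 had 12.56, 12.44, 12.55, 12.68 and 12.53, against 14.55, 14.51 and 14.51 in white fat. No group overlapped in these 4 genes.

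Of the control of heat production, 7 of 15 measured genes were higher and 2 lower, beside 25.4% and 26.7% of all genes. Besides Dio2 these were led by the cyclases Adcy10 (1.97) and Adcy3 (1.19), which make cyclic AMP. Npr3, which clears natriuretic peptides, had 10.21, 9.59, 9.33, 10.34 and 9.80 in brown fat, against 12.38, 12.76 and 12.60 in white fat. Of 17 secreted factors known from brown fat, 9 were higher and 3 lower, beside the same shares of all genes. Angptl8, a regulator of lipoprotein lipase, was higher by 2.77 and S100b, which supports nerve growth in brown fat, by 2.66. Fgf21 was dim in both, with 6.53, 6.66, 6.84, 6.67 and 6.49 in brown fat, against 6.35, 6.30 and 6.32 in white fat (difference 0.32, adjusted p = 0.0134). Igf1 had a difference of -2.81, and Slit2 one of -1.30.

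Among genes that mark position in the body, single members differed strongly in either direction, though the list as a whole was near the background. Of 51 homeobox and other positional genes, 14 were higher and 16 lower in brown fat, with a median of -0.04, shares close to those of all genes (25.4% and 26.7%). Of these, 3 higher and 5 lower ones were large. Zic1, a zinc finger factor of the back of the embryo, had 8.48, 8.50, 8.40, 8.39 and 8.30 in brown fat, against 4.21, 4.30 and 4.31 in white fat. The difference was 4.14 ± 0.07, or 17.6-fold (limma, adjusted p = 1.82e-09), with little spread in either tissue. Hoxc8 had 8.22, 8.43, 8.19, 8.92 and 8.55 in brown fat, against 12.52, 12.66 and 12.98 in white fat (difference -4.26). Lhx8 was higher by 2.23, Shox2 by 1.86, Tbx15 by 1.44 and Hoxa5 by 1.2. Tcf21, a factor of visceral mesoderm, had 5.56, 5.20, 5.62, 5.31 and 5.75 in brown fat, against 8.31, 8.18 and 8.89 in white fat. Of the neighbours of Hoxc8 in its Hox cluster, Hoxc9 (-0.21, limma adjusted p = 0.0662) and Hoxc10 (-0.13, adjusted p = 0.285) were not called. Among 12 genes named in the field as markers of beige fat, 5 were higher and 5 lower, beside 25.4% and 26.7% of all genes. P2rx5, a purine receptor, led the higher ones (2.96), and Hoxc8, Aldh1a1 (-2.95) and Klhl13 (-2.93) were the large falls.

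Skeletal muscle genes made up much of the brown side, and they differed strongly between the brown mice. All 24 measured were higher in brown fat, 23 by a large difference, with a median of 4.90, where 1.29% of all genes were large and higher. Myh4, the fastest myosin, had 9.88, 12.72, 13.59, 12.97 and 12.23 in brown fat, against 5.14, 5.35 and 4.93 in white fat. Tnnc2, a troponin of fast muscle, had 11.02, 14.41, 14.78, 14.53 and 13.40 in brown fat, against 5.72, 5.83 and 5.79 in white fat. Brown mouse 41 was the lowest and mouse 45 the next lowest in both, and no brown value overlapped white. Tnni2 (6.94), Tnnt3 (6.77), Ckm (6.28), Myom2 (6.14), Smpx (5.92), Mb (5.82), Pvalb (5.82) and Ttn (5.70) are further genes of fast or striated muscle. Myl2 (6.00), a light chain of slow muscle and heart, ran from 6.88 in mouse 41 to 13.76 in mouse 42. The mean of the muscle list was 8.78, 12.15, 12.71, 12.26 and 10.82 in the brown arrays and 6.38, 6.49 and 6.36 in the white.

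Of the 234 large rises, 83 varied by 2 or more among the brown arrays, and in all 83 mouse 41 was the lowest and mouse 45 the next. The 83 held 22 genes of the muscle list. In contrast, 142 of the 234 varied by less than 1. Genes that other lists count under heat production, such as Ckmt2 (7.36, 11.43, 11.70, 11.45 and 9.69 in brown fat, against 4.08, 3.90 and 4.06 in white fat), Atp2a1 (10.53, 13.68, 14.25, 13.83 and 12.68, against 6.98, 6.97 and 7.0) and Ryr1, followed the muscle order. Of the 16 genes of creatine and calcium cycling, 8 were higher and 4 lower, and the 4 large ones were Ckmt2, Ckm, Atp2a1 and Ryr1. Their paired genes were not called: Ckmt1 differed by -0.06 (adjusted p = 0.516) and Atp2a2 by 0.13 (adjusted p = 0.321). With the mean of its 6 probe sets, 3 of which were called higher, Atp2a2 was called at 0.59. Without brown mice 42, 43 and 44, which had the highest muscle list means, the muscle list had a median of 3.25, and that of the brown adipocyte list was 3.12, against 4.90 and 3.11 with all arrays. That setting was chosen after the data were seen. The large rises then numbered 204. The part of muscle RNA in the other differences was not tested.

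**Figure D3:**
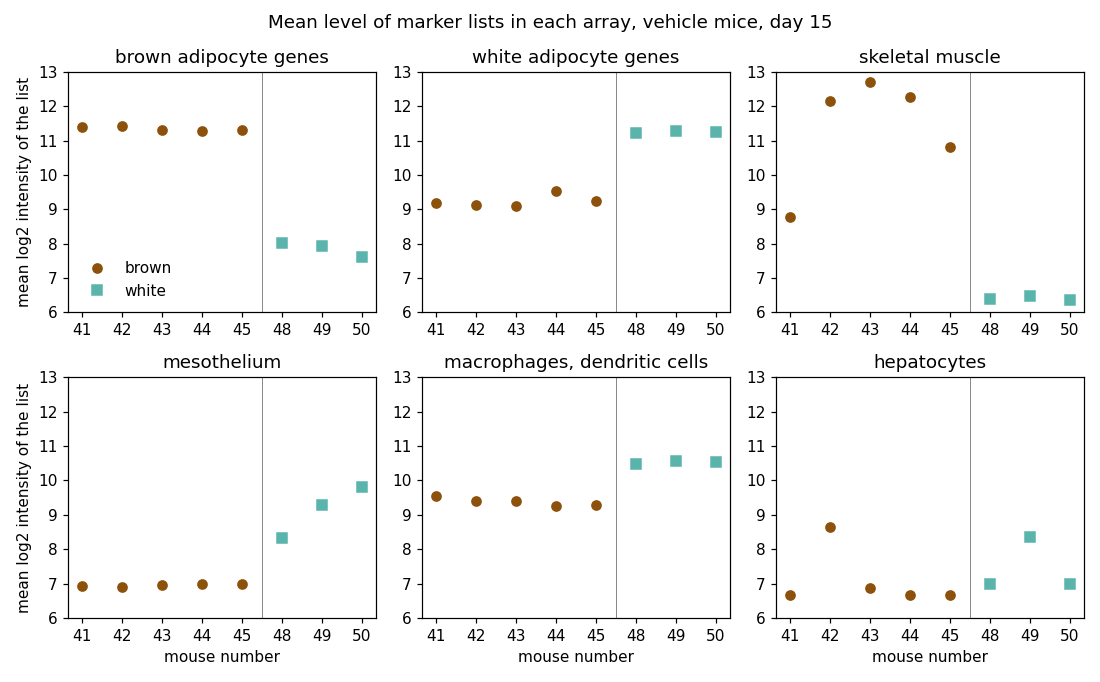
Mean log2 intensity of 6 marker lists in each array of day 15, brown mice 41 to 45 left of white mice 48 to 50. The muscle list runs from 8.78 to 12.71 among brown arrays while the brown adipocyte list stays between 11.27 and 11.43; mesothelial genes differ among the white arrays, and hepatocyte genes are raised in brown mouse 42 and white mouse 49.

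The upstream windows of these groups differed in the letters they hold. The E-box CAGCTG occurred in 46.8% of the 62 genes with a window among the 83 large rises with the muscle-like spread. It occurred in 19.4% of the 108 with a window among the 142 level ones, and in 19.3% of 161 among the large falls. Over all 14453 genes with a window it occurred in 14.9%. A gene counted if any of its windows held the motif, and some genes had several windows. The half-site AGGTCA occurred in 23.1% of the level rises, 16.1% of the muscle-like ones, 10.6% of the falls and 14.6% of all genes. The TATA box occurred in 11.1%, 19.4%, 11.8% and 10.5% of the same sets. The 83 and the 142 were set apart by their values, so these shares are a description with no test. The cyclic AMP response element was found in 0 of the 108 level rises and in 1.61% of the muscle-like ones. It was in 3 of the 179 large rises with a window (1.68%), Dio2 among them, and in 2.5% of all genes. The receptor element TCAAGGTCA was found in none of the large genes and in 0.374% of all, and TGATGCAA in 0.926% of the level rises and 0.74% of all. The muscle E-box and the cyclic AMP element read the same on both strands.

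On the white side, mesothelial genes came with the tissue. Of 20 markers of the cell layer that covers abdominal organs and fat, 17 were lower in brown fat, 11 by a large difference, with a median of -2.17, where 1.2% of all genes were large and lower. Upk3b had 6.24, 6.37, 6.33, 6.68 and 6.40 in brown fat, against 9.93, 11.32 and 12.22 in white fat. Msln had 6.05, 5.55, 6.10, 5.85 and 6.00 in brown fat, against 8.13, 9.82 and 10.16 in white fat. Rspo1 and Gpm6a kept the same order of the 3 white mice. The list mean was 6.89 to 6.99 in brown arrays and 8.33, 9.29 and 9.82 in the white arrays of mice 48, 49 and 50. Bnc1 (-2.73), of the positional list, had its lowest white value in mouse 48 too (6.45, against 7.73 and 8.02 in mice 49 and 50). Of the 218 large falls, 173 varied by less than 1 among the white arrays. In 33 of the 45 others mouse 48 was the lowest.

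Immune and matrix genes were lower in brown fat. Of 27 genes of macrophages and dendritic cells, 22 were lower and 1 was higher, with a median of -1.35. Ccl6 had 10.12, 10.46, 10.79, 10.11 and 9.83 in brown fat, against 12.44, 12.60 and 12.81 in white fat, and the scavenger receptor Cd163 had a difference of -2.22. In the complement list 11 of 16 were lower and 0 higher, led by C2 (-3.21), Lbp (-3.14) and Cfb (-2.68). Of 21 lymphocyte genes 10 were lower and 2 higher: Ighm, the heavy chain of immunoglobulin M, had 9.02, 8.14, 9.29, 8.92 and 8.28 in brown fat, against 11.94, 13.04 and 11.69 in white fat, although only 2 of its 11 probe sets were called lower. Jchain (-2.92) was high in white mouse 49 (11.89, against 8.67 and 8.46 in the other white mice). Of 35 collagen and matrix genes 28 were lower and 1 was higher (median -0.78), with Fn1 (-2.18), Fbln1 (-2.06), Ogn (-1.95) and Col5a3 (-1.91) in the lead. Fibroblast and preadipocyte markers were lower in 11 of 22 and higher in 1. Beside these lists stand the mesothelial values given above, since matrix and complement genes are used by those cells too; their part was not tested.

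Vessel cells differed by smaller amounts at the median, but the called endothelial genes were nearly all lower. Of 26 endothelial genes 13 were lower and 1 was higher, with a median of -0.33. For this list and those that follow, the shares of all genes were 26.7% lower and 25.4% higher. Cldn5 (-2.25), Lyve1 of lymphatic vessels (-1.96), Vwf (-1.85) and Sox17 (-1.02) were the largest. Genes of pericytes and smooth muscle split: of 15 measured, 5 were higher and 4 lower, with a median of 0.12. Acta2 (-1.73), Mylk (-1.80) and Tagln (-1.67) were among the lower ones. Des (2.33), shared with skeletal muscle, was among the higher ones and followed the muscle order (9.78, 11.57, 12.10, 11.65 and 10.51 in brown fat, against 8.86, 8.96 and 8.55 in white fat). Among vessel growth factors 11 of 22 were lower and 2 higher, with Vegfd (-2.74) and Igf1 in the lead. Of 21 hypoxia targets 8 were higher and 8 lower, beside 25.4% and 26.7% of all genes: Egln3 (1.74), Egln1 (1.65) and Pdk1 (1.45) were higher and Adm (-2.53) lower. Nerve and Schwann cell genes were higher in 7 of 12 and lower in 3, with Mbp higher by 1.85 and Scn7a at -2.74. Mast cell genes were higher in 5 of 8 (median 0.51), with Kit at 1.05. On day 29 the median was -0.24 without the 3 libraries described below, and Kit differed by 0.33 (adjusted p = 0.427).

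Other tissues left few traces in the group comparison. Of 18 hepatocyte genes 1 was lower (Cyp2e1, -1.60) and none was higher, but the list mean was 8.65 in brown mouse 42 and 8.36 in white mouse 49, against 6.66 to 7.0 in the other 6 arrays. Without both arrays the large rises numbered 224 and the large falls 222. Epididymal genes, which would mark the duct next to the gonadal fat, were higher in 1 and lower in 1 of 15, and their list mean was 5.77 to 5.78 in brown and 5.72 to 5.84 in white arrays. Pancreatic genes were higher in 2 and lower in 1 of 9.

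The same tissues were also sampled on day 29, from 5 brown and 4 white vehicle mice of the same studies that the day 15 comparison did not use. Here some libraries went against their labels. The library labelled brown fat of mouse 82 had Ucp1 at 5.91, Lep at 12.27 and Hoxc8 at 12.30, within or near the white range, and the hepatocyte gene Alb at 14.61. The other 4 brown libraries had Ucp1 at 14.95 to 15.11 and Lep at 6.55 to 8.90. The libraries labelled white fat of mice 85 and 86 had Ucp1 at 13.44 and 11.69, against 5.81 and 5.13 in mice 81 and 83, and Myh4 at 10.69 and 8.81, against 4.80 and 5.10. Their Lep (13.20 and 13.13) was as high as in the other white libraries (13.01 and 13.41). Results of day 29 are therefore given with and without these 3 libraries, a choice made after the data were seen.

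**Figure D4:**
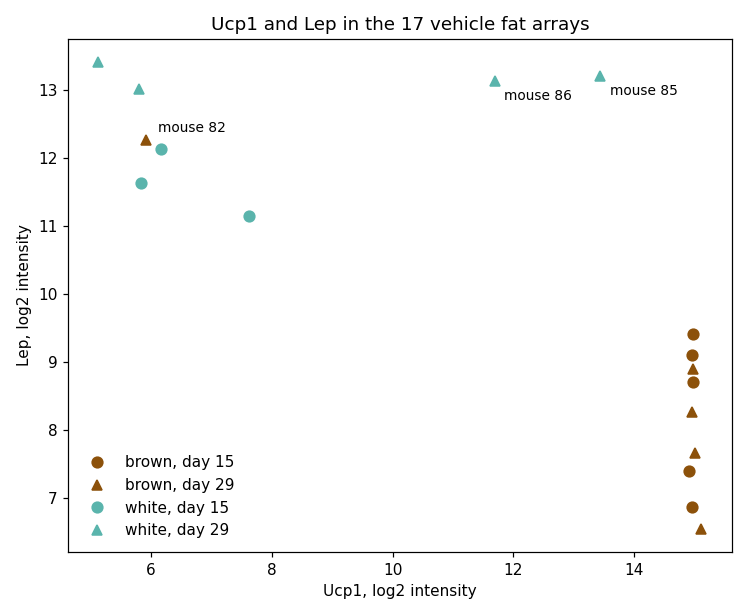
Lep against Ucp1, both in log2 intensity, in the 17 vehicle fat arrays of both days. Brown arrays sit at Ucp1 of 14.91 or more except the one labelled mouse 82, which lies among the white arrays; white mice 85 and 86 of day 29 have both high Lep and raised Ucp1.

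The large differences of day 15 kept their direction on day 29. With all 9 arrays of day 29, each of the 234 large rises and each of the 218 large falls had the same sign, with median differences of 2.08 and -2.19 (on day 15, 2.95 and -2.47). Of them 88 rises and 163 falls were called, where 16.8% of all genes were called. Large differences of day 29 itself numbered 25 higher (0.137% of genes) and 78 lower (0.429%). Without the 3 libraries, 227 of the 234 rises and all 218 falls were called with the same sign, with medians of 2.93 and -2.91. Large differences then numbered 226 higher (1.24%) and 451 lower (2.48%). Of the large day 15 genes, 199 higher and 200 lower ones were large again. Ucp1 then differed by 9.54 (adjusted p = 2.04e-07), against 4.17 (adjusted p = 0.219) with all arrays. Lep differed by -5.37 (limma adjusted p = 2.47e-04), against -4.46 (adjusted p = 0.0242). Ucp1 and Lep were among the values by which the 3 libraries were set apart. Their differences and p-values without these libraries follow in part from that choice and are no independent test of day 15. The same limit holds for the counts of rises and falls without them.

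**Figure D5:**
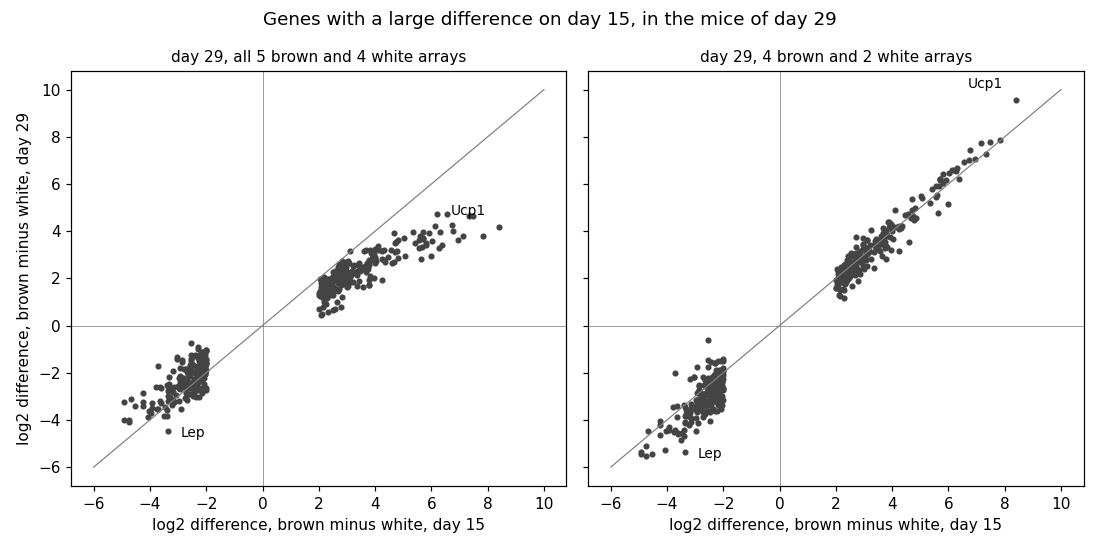
Log2 difference, brown minus white, on day 29 against that on day 15 for the 452 genes with a large difference on day 15; left with all 9 arrays of day 29, right without the library labelled brown mouse 82 and those of white mice 85 and 86. Every point lies in the quadrant of its own sign, and at right the rises lie closer to the diagonal line of equal differences (median distance 0.25, against 0.98 at left), while the falls do not (0.48, against 0.41).

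Whether the tissue difference changed between the days was tested in 1 fit of all 17 vehicle fat arrays. No gene was called in limma (0 of 18194, or 0.0%), with 1366 at an unadjusted p below 0.05 and a smallest adjusted p of 0.0504. Without the 3 libraries 20 genes were called, 18 of them with a more negative difference on day 29 and 2 with a more positive one. Among the 20, named after their values were seen, were chains of collagens VI and V. Col6a2 differed by -1.53 on day 29 and by -0.16 on day 15 (change -1.37, adjusted p = 0.0103), and Col5a1 by -1.99 and -0.47 (change -1.51, adjusted p = 0.0483).

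How far 2 studies differ in 1 tissue was asked of vehicle livers, since the fenretinide study had no liver arrays here. Between 5 vehicle livers of the troglitazone study (10GR202) and 5 of the Elmiron study (10GR221) on day 15, limma called 0 genes (0.0%), with 940 at an unadjusted p below 0.05. The largest difference of any gene was 1.69, and 3 genes differed by 1 or more, against 2066 genes between brown and white fat. This concerns another pair of studies and another tissue, and the white fat's own study was not part of it.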

How the data were processed

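RNA of 8 vehicle fat samples of day 15 (5 brown, 3 white) was compared, with 9 fat arrays of day 29 and 10 vehicle livers beside them. Per the labels, Trizol was used to extract RNA, and cRNA carrying biotin was put on Affymetrix mouse arrays. The deposited values are linear intensity per probe set after RMA, per the submitters' processing notes. The RMA version, and which arrays it was run on together, is not given in the sources used here. No detection calls were used. Deposited intensity ran from 7.44 to 39426 over 74 arrays, and log2 was taken here. Of 45101 probe sets, 34958 had 1 gene symbol, 932 had several, 9147 had none and 64 were controls. For each of 18194 genes the brightest probe set on average over the 74 arrays was kept, and no filter on dim genes was set. For arrays, their number limits the precision.

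The test was limma's (version 3.58.1, under R 4.3.3), with lmFit, eBayes and Benjamini-Hochberg adjustment. Python 3.11.15 served for tables, with pandas 2.3.3 and numpy 2.4.6, and matplotlib 3.10.9 for plots. Replicates are separate mice by their numbers. Data were simulated for the day 15 comparison with 200 of 18194 genes changed and no study effect. The fit recovered 60% of genes changed by 0.5, 86% at 1, and 98% at both 2 and 3 (log2). It gave 16 false among 187 calls and 0 false large differences. In the real comparison 52.1% of genes were called, a far larger share, so these rates do not carry over to it. The members, 41 gene lists and naming rule were chosen with earlier results of these data known. The rule names the 20 largest rises and 20 largest falls among called genes without overlap, the 4 called members of each list with the largest difference, a fixed set of genes and the members of the paired gene families. Gene symbols are those of the platform annotation, checked against RefSeq (GRCm38.p6). Other settings were quantile normalization, median centring, dropping the dimmer 50% of genes, other choices of probe set, trended and robust eBayes, array weights, a test against 2-fold, a fit with all 17 vehicle fat arrays and leaving out arrays.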

Additional observations from a re-analysis of the deposited data

Results flagged for a closer look

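Among the 5 brown arrays of day 15, 109 values were checked for 1 array set apart from the other 4 by Dixon's criterion, and 7 were; chance flags about 1 in 20 groups. The mean of the hepatocyte list was high in brown mouse 42 (8.65), which also had the highest Elovl3 (13.8). Brown mouse 41, with the least muscle RNA, had the lowest mean of the mast cell list (7.07), the highest Ebf2 (11.09) and the highest Cox7a1 (13.91). Eya1 was lowest in mouse 45 (5.39), and Slc39a8 highest in mouse 43 (6.86).

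Of 12 list means checked in the groups of day 29, 6 were set apart. For 5 of them the array was the one labelled brown fat of mouse 82: its mean was 8.12 for brown adipocyte genes, 11.31 for white adipocyte genes, 9.72 for mesothelium, 11.98 for hepatocytes and 8.35 for general epithelium. White mouse 86 of day 29 had the lowest mean of white adipocyte genes (10.99). Nothing but these values was examined for the cause, which was not tested.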

How the results depend on the processing

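No paired analysis was possible because the brown and white mice come from different studies and share no mouse number on day 15. The large differences of day 15 (452 genes) were within 1.5 times that count under every setting run, from 341 with the dimmer 50% of genes dropped to 490 without brown mouse 41. The called genes (9483) numbered 877 in a test against 2-fold (403 higher and 474 lower) and 6120 without brown mice 42, 43 and 44 (2772 higher), and 2763 were higher with the dimmer 50% dropped. Of 3900 values of the 207 named genes under other settings, 3754 kept their direction and their side of the threshold, 135 were no longer called, 11 became called and 0 reversed. Day 29 depended on its libraries: leaving out 1 array at a time gave 35 to 9399 called genes (3052 with all) and 10 to 575 large ones (103 with all). The highest counts were those without the array labelled brown mouse 82, and every other single omission gave at most 432 called genes. Without white mice 85 and 86 alone, 12 were called and 6 were large. Without all 3 arrays, 8621 were called and 677 were large. The change of the difference between days gave 0 calls with all arrays, 0 to 5 leaving out 1 array, and 20 without the 3. The liver comparison gave 0 calls throughout. Why the counts moved was not tested. The median of the lipid droplet list, -0.32, was 0.03 with the mean of all probe sets of a gene. Levels of dim genes are limited by background, for which no detection calls were used.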

Other observations

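Clock genes and retinoid genes held further large differences. Bhlhe40, a repressor in the clock, had 12.31, 11.98, 11.90, 11.81 and 11.82 in brown fat, against 8.25, 8.57 and 9.07 in white fat. The clock list was otherwise mixed, with 7 of 17 genes higher and 4 lower, beside 25.4% and 26.7% of all genes. Per1 had a difference of -1.09, and Dbp, which swings widely over the day, had 10.78, 9.88, 11.36, 10.30 and 11.18 in brown fat, against 9.88, 9.76 and 8.12 in white fat, where the groups overlap. The time of day of the killing was not given in the labels. Of 20 genes of retinoid handling 6 were higher and 6 lower, shares near those of all genes (25.4% and 26.7%). Rarb, a retinoic acid receptor, was higher by 2.21. Aldh1a1, which makes retinoic acid, had 8.63, 10.24, 10.58, 10.51 and 9.37 in brown fat, against 12.54, 12.86 and 13.03 in white fat, with brown mouse 41 again the lowest and mouse 45 the next.

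Peroxisome genes were higher in 12 of 23 and lower in 6, beside 25.4% and 26.7% of all genes. The fatty acid carrier Abcd3 was higher by 1.55, while its relative Abcd2 had 10.06, 10.24, 9.84, 10.74 and 10.38 in brown fat, against 13.06, 12.47 and 12.67 in white fat. Among the 10092 probe sets without a single gene symbol, 38 were higher and 46 lower in brown fat by the same rule for large differences.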
